A study of Caenorhabditis elegans with 42 samples.

Results

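Caenorhabditis elegans strains BB19 and BB2 carry different mutant alleles of the same gene, adr-1, and were set against each other at L4, the last larval stage. The comparison covers 3 BB19 and 3 BB2 libraries of the 42 in the series, taken from the deposited table of each strain at L4. For every gene the log2 ratio of BB2 to the wildtype N2 was subtracted from that of BB19 to N2, each mean with a pseudocount of 1, so that N2 largely cancels. A positive difference therefore means more RNA in BB19 than in BB2. Of 30301 genes, 16506 had an average of at least 10 normalised reads over the BB19, BB2 and both N2 means, and the counts below are over these.

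ADAR enzymes bind double-stranded RNA and turn adenosine into inosine, which the cell reads as guanosine. In the worm ADR-2 is the active deaminase. ADR-1 lacks deaminase activity, binds RNA and helps to set how strongly ADR-2 edits its targets. L4 is also the stage at which the hermaphrodite gonad finishes making sperm and turns to oocytes, the gut begins to make yolk, and the epidermis builds the adult cuticle.

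BB19 carries adr-1(tm668) and BB2 carries adr-1(gv6). The other strains used here are RB886, with adr-2(ok735), BB3, with adr-2(gv42), and the wildtype N2, each with 3 libraries at L4. In embryos the labels give 3 libraries for each of these strains except BB2, with 2, and N2, with 4. Lists of bound RNAs come from young adults of HH76 and HH134, which carry a FLAG-tagged adr-1 transgene, and of the control BB21, each with 2 pull-down libraries. All strains grew at 20 °C on OP50 bacteria, L4 larvae were raised from synchronised hatchlings, and libraries came from whole worms after removal of ribosomal RNA. Each allele is represented by 1 strain, so the allele and any other difference between the strains cannot be told apart. In whole worms, fewer cells of a type and less RNA per cell cannot be told apart either.

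The deposited values are means over the libraries of a strain, in normalised reads, with no value per library. No SD can be given, no test of BB19 against BB2 was possible, and a gene is counted as higher or lower where the 2 strains differ at least 2-fold. BB2 means are given multiplied by 1.115, the factor that brings the N2 means of its table to those of the BB19 table, and N2 values are those of the BB19 table. Counting error alone gives the difference a standard error of 0.38 on the log2 scale at a level of 10 reads in both strains, 0.12 at 100 and 0.0378 at 1000. Read steps in the means of low genes put the libraries of BB19 within 1.41-fold of each other in depth, and those of BB2 within 1.96-fold. In the titles 1 L4 library of each strain bears the same set name, and BB19 shares a date with N2, but means over a strain left no way to compare strains within a set.

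The targeted gene, adr-1 (H15N14.1, chromosome I), was lower in both mutants than in N2, and lower in BB19 than in BB2. Its most abundant transcript, H15N14.1c, had 1020 normalised reads in BB19 and 1773 in BB2, against 3300 in N2. That left 0.309 of the N2 level in BB19 and 0.537 in BB2, a difference of −0.80 on the log2 scale. In embryos the order was the other way round, with 1520 in BB19 and 1071 in BB2, against 6290 in N2 (difference 0.50). Because BB2 at L4 kept the most adr-1 RNA of the 4 mutant groups (0.242 of N2 in BB19 embryos and 0.170 in BB2 embryos), BB2 at L4 means here the libraries labelled BB2. Deposited reads over a deleted gene can come from its remaining parts, so these levels do not measure protein.

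A transcript annotated as H15N14.1g separated the alleles at both stages. It had 23.5 reads in BB19 and 168 in BB2 at L4, against 239 in N2 (difference −2.79). In embryos it had 26.2 reads in BB19 and 130 in BB2, against 425 in N2 (difference −2.27). A near neighbour of adr-1 in the annotation, D2005.1, was also lower in both strains at L4, at 204 reads in BB19 and 319 in BB2, against 487 in N2. VH15N14R.1, which lies between the pair, had 50.8 reads in BB19 and 35.8 in BB2, against 34.7 in N2, and nsf-1, on the other side, had 4070 in BB19 and 4315 in BB2, against 3770 in N2. Farther out on that side, F58H10.1 had 29.7 in BB19 and 48.1 in BB2, against 46.4 in N2, and F27D4.6 was somewhat lower in both strains, at 1150 in BB19 and 1182 in BB2, against 1340 in N2. Beyond D2005.1, D2005.6 had a log2 ratio to N2 of 0.14 in BB19 and 0.37 in BB2. Overlapping transcripts of a gene share reads, so the other 4 adr-1 transcripts, with L4 differences from −0.80 to −0.71, are not independent values.

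The partner enzyme gene, adr-2 (T20H4.4, chromosome III), is intact in both strains by genotype. It had 1310 reads in BB19 and 801 in BB2, against 1260 in N2, a difference of 0.71. In the authors' deposited table the adjusted p against N2 was 0.127 for BB19 and 1.13e-29 for BB2. In embryos both strains were close, at 1800 reads in BB19 and 1727 in BB2, against 2010 in N2 (difference 0.06).

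**Figure D1:**
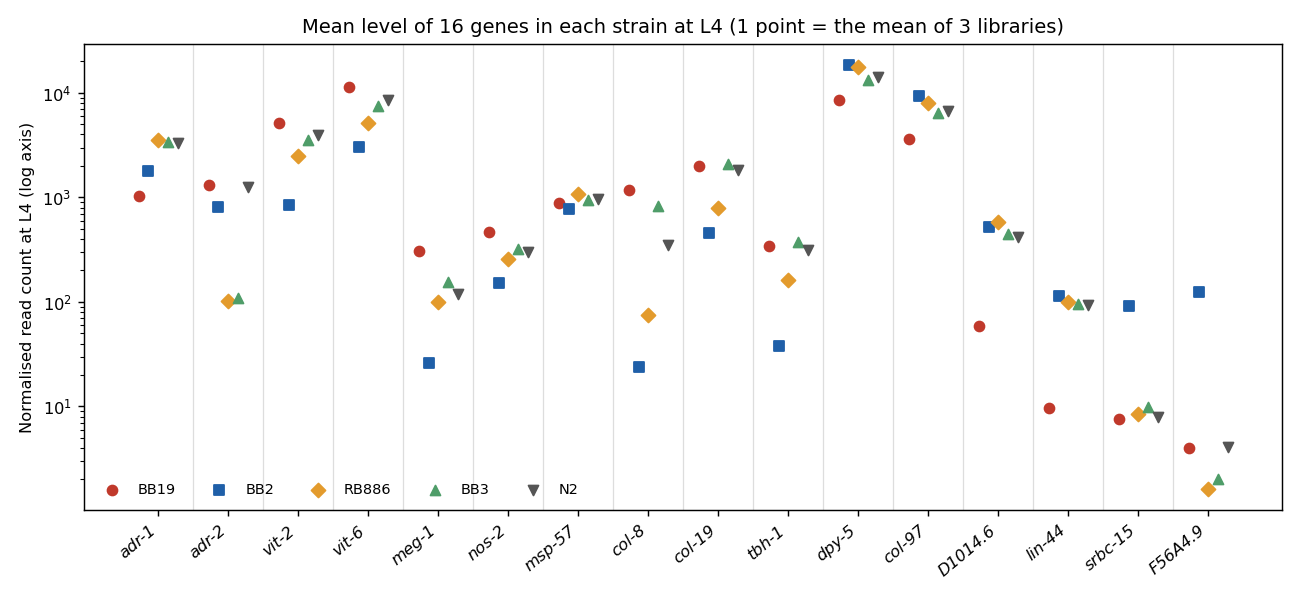
Mean normalised read count at L4 (log axis) of 16 genes in BB19, BB2, RB886, BB3 and N2; each point is the mean of 3 libraries as deposited, rescaled to the BB19 table, and no error can be drawn. BB19 lies above BB2 for the yolk genes vit-2 and vit-6, the germ plasm gene meg-1 and the collagens col-8 and col-19, and below it for dpy-5, col-97, D1014.6, lin-44, srbc-15 and F56A4.9.

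Across all genes the alleles differed mostly in 1 direction. At least 2-fold higher in BB19 than in BB2 were 511 genes (3.1% of those tested), and 121 were at least 2-fold lower (0.733%). At least 4-fold apart were 195 of the higher and 22 of the lower genes. The median difference was 0.01 and the interquartile range was 0.388 on the log2 scale, or 0.328 among genes with an average of at least 100 reads. The same range was 0.256 between the adr-2 strains RB886 and BB3 at L4, 0.265 between BB19 and BB2 embryos and 0.243 between RB886 and BB3 embryos, so of the 4 pairs of alleles the adr-1 pair at L4 was the widest. Counted in either direction, 3.83% of genes were at least 2-fold apart in the adr-1 pair at L4, against 2.53% between RB886 and BB3 at L4 and 4.26% between BB19 and BB2 embryos. Between RB886 and BB3 embryos it was 0.768%, with 0.189% higher and 0.579% lower.

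In the median, the strains lay on opposite sides of N2, 1 of them farther from it than the other. Over the 511 genes higher in BB19 the median log2 ratio to N2 was 0.57 in BB19 and −1.38 in BB2. Over the 121 genes lower in BB19 it was −1.04 in BB19 and 0.23 in BB2. The genes were chosen by the difference between the 2 ratios to N2, which favours medians on opposite sides of N2, so these values are a description only. In the authors' deposited table, at an adjusted p under 0.05 against N2, 25.3% of all tested genes were higher and 22.2% lower in BB19, and 24.1% were higher and 27% lower in BB2.

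**Figure D2:**
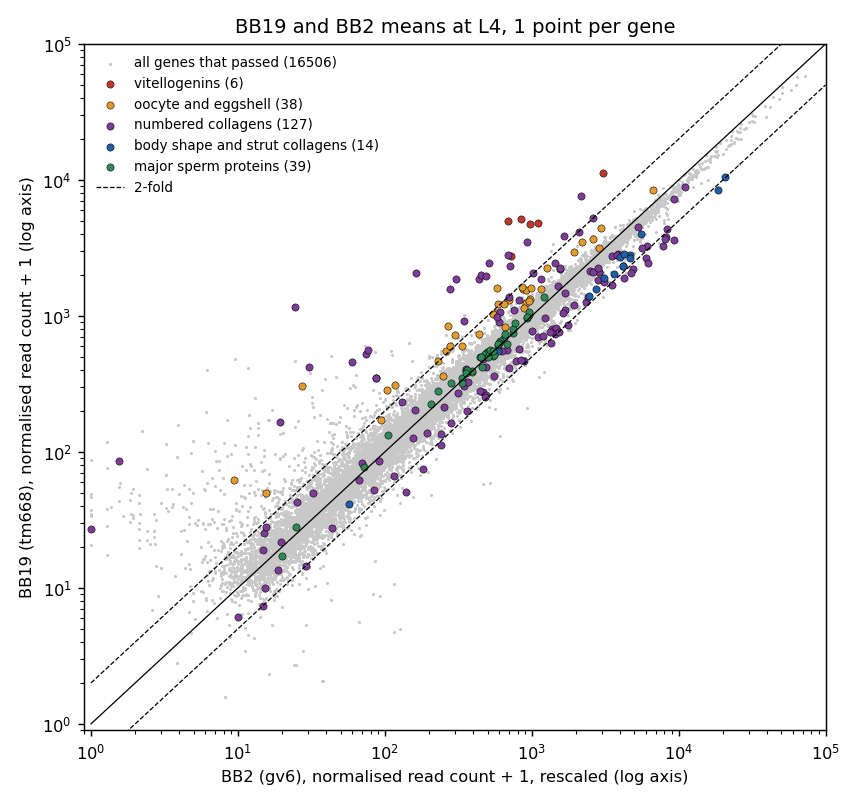
Each point is a gene at L4, with the BB2 mean (rescaled) on the x axis and the BB19 mean on the y axis, both as normalised reads plus 1 on log axes; dashed lines mark a 2-fold difference. The cloud is lopsided, with more genes above the upper line than below the lower one. The direct ratio of the rescaled means gave 512 higher and 122 lower genes, and the difference used in the text 511 and 121. The 6 vitellogenins all lie above the upper line, while the body shape collagens lie below the diagonal.

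Yolk genes were the clearest group. Vitellogenins, the yolk proteins that the gut makes and oocytes take up, were at least 2-fold higher in BB19 for 6 of 6 genes, against 3.1% of all genes, with a median difference of 2.21. For all 6, in the authors' deposited table, BB19 was higher than N2 and BB2 lower, against 25.3% and 27% of all tested genes. vit-6 had 11300 reads in BB19 and 3055 in BB2, against 8570 in N2 (difference 1.89). vit-2 had 5200 reads in BB19 and 839 in BB2, against 3990 in N2 (difference 2.63). vit-5 had the widest gap of the family, with 4950 reads in BB19 and 686 in BB2, against 3410 in N2 (difference 2.85). Summed over the family there were 33790 reads in BB19 and 7374 in BB2, against 24850 in N2. Some vitellogenin genes are near copies of each other, so reads may be shared between them, and how the sum counts such reads is not known.

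Genes of oocytes and the eggshell were higher in BB19 as well. Of 38 that passed, 12 were at least 2-fold higher (31.6%, against 3.1% of all genes), 0 lower, and 37 lay above 0, with a median difference of 0.87. The 12 were meg-1, meg-2, cav-1, oma-2, mex-1, C44B12.1, C44B12.5, puf-5, oma-1, egg-2, cpg-3 and pie-1. They include RNA-binding regulators of the oocyte-to-embryo transition (oma-1, oma-2, mex-1, pie-1, puf-5), the eggshell proteins C44B12.1 and C44B12.5, better known as PERM-2 and PERM-4, and the chondroitin proteoglycan CPG-3. meg-1, needed for germ plasm in the embryo, had 305 reads in BB19 and 26.3 in BB2, against 118 in N2 (difference 3.48). Its relative meg-2 had 61.2 reads in BB19 and 8.36 in BB2, against 21.7 in N2 (2.72). cav-1, which encodes caveolin, had 49.1 reads in BB19 and 14.6 in BB2, against 17.5 in N2 (1.68).

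Further members of the list had higher levels. mex-1 had 1610 reads in BB19 and 576 in BB2, against 1250 in N2 (difference 1.48). oma-2 had 838 reads in BB19 and 270 in BB2, against 608 in N2 (1.63). The yolk receptor gene rme-2 had 3680 reads in BB19 and 2609 in BB2, against 3480 in N2 (0.50). The single member below 0 was lin-29, at 389 reads in BB19 and 390 in BB2. It is a regulator of the larval-to-adult switch that the list also held. Among those above 0 the list held fog-2 (0.88), which is also on the sex determination list. Of the 38, the authors' deposited table has 33 as higher than N2 in BB19 and 36 as lower than N2 in BB2. Over all tested genes these shares were 25.3% and 27%.

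The rest of the germ line differed by less. Of 48 germline genes, 1 was at least 2-fold higher (2.08%, against 3.1% of all genes), nos-2, a Nanos-family repressor of primordial germ cells, with 469 reads in BB19 and 152 in BB2, against 299 in N2 (difference 1.62). The median of the list was 0.24, as was that of 30 cell cycle genes. None of these 30 reached 2-fold, against 3.83% of all genes in either direction. Most members were nonetheless higher in BB19. Above 0 lay 43 of the 48 germline and 27 of the 30 cell cycle genes, against 8375 of all 16506. The largest cell cycle differences were those of the B-type cyclins cyb-2.1 (0.84) and cyb-2.2 (0.79) and of the centromeric histone gene cpar-1 (0.75). Uterus and spermatheca genes went both ways, with 6 of 11 above 0, 5 below and a median of 0.09. None reached 2-fold, near the 3.83% of all genes in so short a list. The highest were the innexins inx-22 (0.94) and inx-14 (0.72), which form the junctions of germ cells with the gonadal sheath. Beyond the lists, W03F11.1 (ule-1), of the proteins found in the uterine lumen, had 86.5 reads in BB19 and was listed at 0 in BB2, against 9.01 in N2, so no fold is given.

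Sperm genes, by contrast with yolk and oocyte genes, lay together in both strains. Major sperm proteins, the cytoskeletal and signalling proteins of worm sperm, had a median difference of 0.09 over 39 genes. Their range was from −0.22 to 0.33, with none at 2-fold, against 3.83% of all genes. Their summed level was 21352 reads in BB19 and 20153 in BB2, against 25421 in N2. Other sperm-specific families (median 0.06 over 23 genes) and spermatogenesis genes (0.03 over 31) were likewise close to 0; the sign of the last changed under another choice of transcripts or filter, as its size is below 0.05. Both strains were below N2 for most of them: of the major sperm protein genes, the authors' deposited table has 35 as lower in BB19 and 38 in BB2, and none as higher. Over all tested genes 22.2% were lower in BB19 and 27% in BB2.

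**Figure D3:**
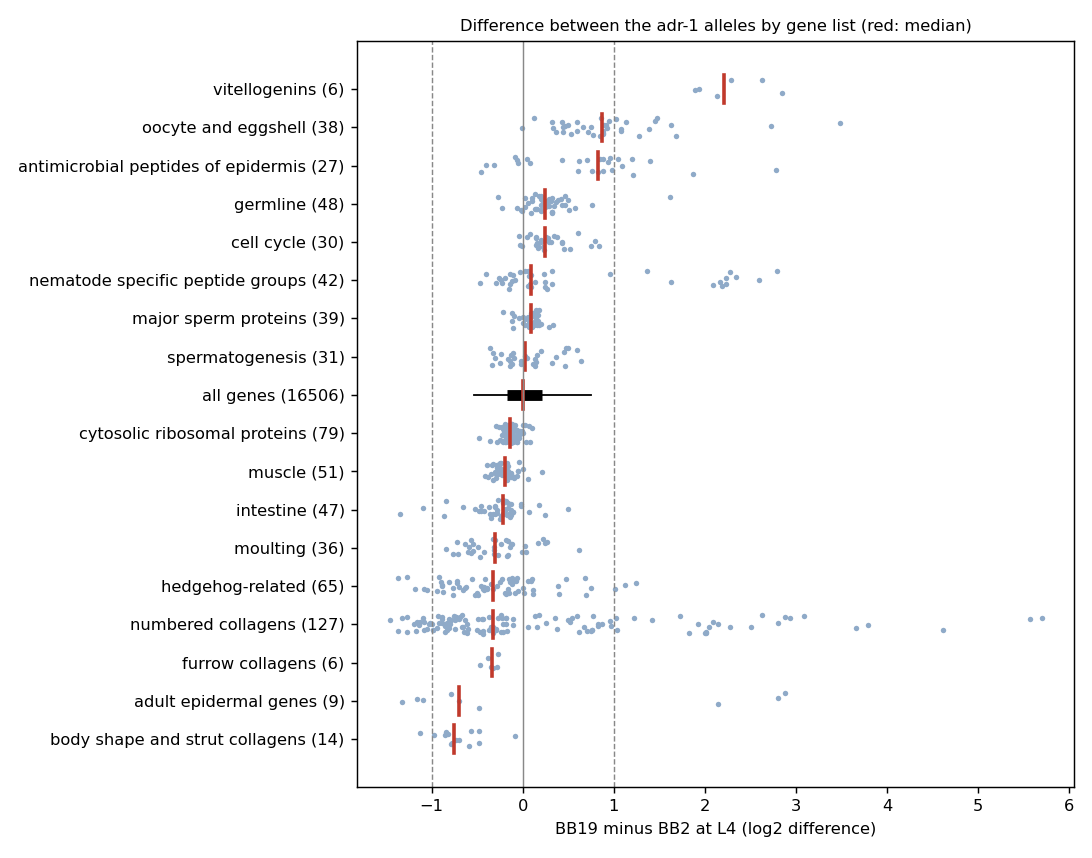
BB19 minus BB2 at L4 on the log2 scale for the members of 17 gene lists that passed the filter (points, numbers in brackets), with the list median in red; for all genes the thick bar spans the interquartile range and the thin line the 5th to 95th percentile. Vitellogenins (median 2.21) and oocyte and eggshell genes (0.87) lie to the right, major sperm proteins at 0.09, and body shape and strut collagens (−0.76) to the left, while numbered collagens spread to both sides.

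Cuticle collagens split by family. Collagens that set body shape or build the struts of the cuticle lay below 0 for 14 of 14 genes, with a median difference of −0.76 and 1 at 2-fold (7.14%, against 0.733% of all genes). That gene was dpy-5, with 8470 reads in BB19 and 18399 in BB2, against 14100 in N2 (difference −1.12). sqt-1, in which mutations twist or shorten the body, followed, with 10500 reads in BB19 and 20629 in BB2, against 12600 in N2 (−0.97). Next was col-112, now named bli-6, at 2330 reads in BB19 and 4204 in BB2, against 3800 in N2 (−0.85). Of the 14, the authors' deposited table has 10 as lower than N2 in BB19, and 11 as higher than N2 in BB2. Over all tested genes these shares were 22.2% and 24.1%.

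The 6 furrow collagens, made together early in each cuticle cycle, were also all below 0 between the alleles, with a median of −0.34. Both strains, however, stood above N2, with 9108 reads summed over the 6 in BB19 and 11725 in BB2, against 3979 in N2. So did the adr-2 strains, with a median log2 ratio to the same N2 libraries of 0.77 in RB886 and 0.78 in BB3. dpy-7 had 1900 reads in BB19 and 2632 in BB2, against 932 in N2. Moulting genes had a median difference of −0.31 over 36 genes, with none at 2-fold, against 3.83% of all genes. The largest were cpz-1, a cathepsin, with 2260 reads in BB19 and 4048 in BB2 (−0.84), mlt-10 (−0.77) and the hedgehog-related gene qua-1 (−0.72). Hedgehog-related genes, an expanded family tied to cuticle and moulting in worms, had a median of −0.33 over 65 genes, with 3 at least 2-fold higher (4.62%, near the 3.1% of all genes) and 5 lower (7.69%, against 0.733%). grd-11 (−1.36) and wrt-8 (−1.27) lay at the low end and grl-4 (1.24) at the high end.

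Among 127 numbered collagens both directions were common, with 25 at least 2-fold higher in BB19 (19.7%, against 3.1% of all genes) and 16 lower (12.6%, against 0.733%). The median was −0.33. col-8 stood out among the higher ones, with 1170 reads in BB19 and 23.6 in BB2, against 349 in N2 (difference 5.56). col-143 had 423 reads in BB19 and 29.5 in BB2, against 59.6 in N2 (3.79). col-95 had 85.3 in BB19 and 0.561 in BB2, against 13.6 in N2 (5.70). The counting standard error of the col-95 difference was 1.23, since its BB2 mean matches 1 read in 1 library. The most abundant of the higher collagens was col-124, with 7680 reads in BB19 and 2163 in BB2, against 6860 in N2 (1.83). Among the lower ones, col-97 had 3590 reads in BB19 and 9311 in BB2, against 6660 in N2 (−1.37), col-71 had 3680 in BB19 and 8073 in BB2, against 6060 in N2 (−1.13), and col-38 had 3810 in BB19 and 8162 in BB2, against 6300 in N2.

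The list of genes tied to the adult epidermis, 9 in all, was divided, with 3 higher (33.3%, against 3.1% of all genes), 3 lower (33.3%, against 0.733%) and a median of −0.70. Its higher members were col-7, col-62 and col-19, which are known as collagens of the adult. col-19 had 2010 reads in BB19 and 453 in BB2, against 1820 in N2 (2.15), and col-7 had 563 in BB19 and 75.5 in BB2, against 879 in N2 (2.88). Its lower members were col-38, col-49 and col-63, and the strut collagens bli-1 (−0.48) and bli-2 (−0.70) and the body shape collagen rol-6 (−0.79) also lay below 0. Summed over the 9 genes there were 18573 reads in BB19 and 30352 in BB2, against 24665 in N2. Yolk and oocyte RNA and that of col-7, col-62 and col-19 was thus higher in BB19 in the same libraries in which body shape collagen RNA was lower. Such genes are regulated by stage, the sources used here do not give the age of each library in hours, and the part of age in these values was not tested.

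**Figure D4:**
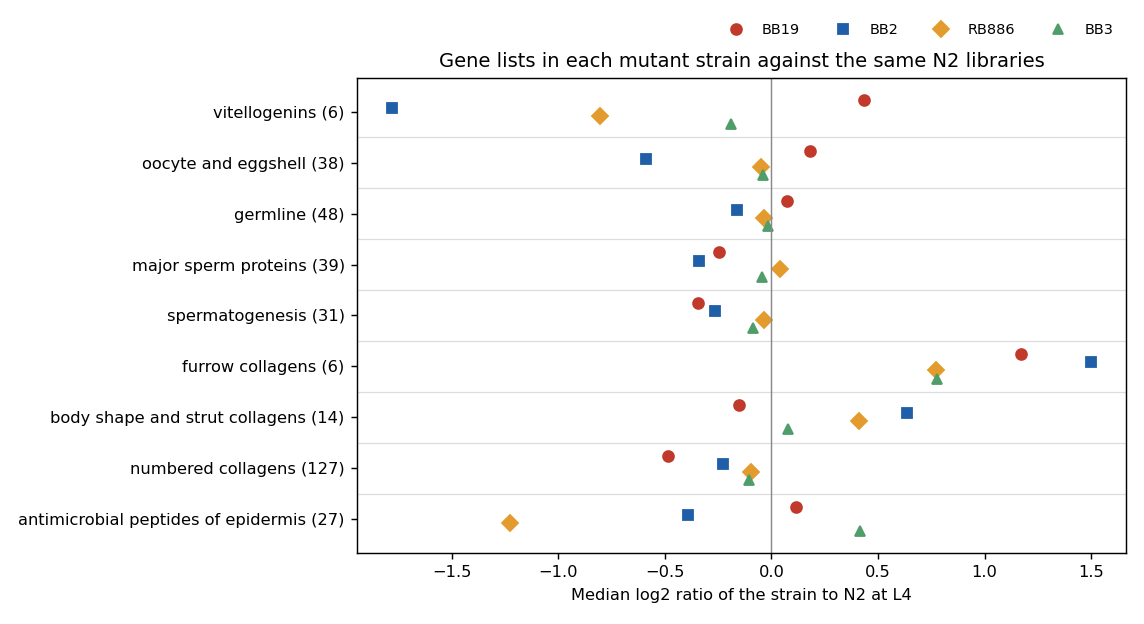
Median log2 ratio to N2 at L4 of 9 gene lists in BB19, BB2, RB886 and BB3 (numbers of genes in brackets). All 4 strains were divided by the same N2 libraries; BB19 lies right of N2 and BB2 left of it for vitellogenins (0.43 and −1.78) and oocyte and eggshell genes (0.18 and −0.59), and all 4 strains lie right of it for furrow collagens.

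Small secreted defence peptides formed a further group. Of 27 antimicrobial peptide genes of the epidermis that passed, out of 51 in the table, 7 were at least 2-fold higher in BB19 (25.9%, against 3.1% of all genes) and none lower, with a median difference of 0.82. nlp-28 had 51.2 reads in BB19 and 6.51 in BB2, against 22.1 in N2 (2.78). fipr-3 had 47.4 reads in BB19 and 12.2 in BB2, against 43.7 in N2 (1.87), and nlp-26 had 94.3 reads in BB19 and 35.3 in BB2, against 38.4 in N2 (1.39). nlp-24, the member with the most reads in BB19, had 565 in BB19 and 533 in BB2 (0.08). Members of the fipr family lie close together and resemble each other, so their reads may be shared. Of 66 neuropeptide genes that passed, 3 were at least 2-fold higher (4.55%, near the 3.1% of all genes). Those 3 (nlp-28, nlp-26 and nlp-27) are also on the list of epidermal peptides, and none of the other 63 reached 2-fold.

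Several families had members far apart and a median nearer to 0. C-type lectins, a large family of secreted carbohydrate-binding proteins, had 5 genes higher of 119 (4.2%, against 3.1% of all genes) and 9 lower (7.56%, against 0.733%). The lower ones with the widest gaps were clec-242 (−1.69) and clec-209 (−1.65), whereas the highest difference was that of clec-223, at 415 reads in BB19 and 10.7 in BB2, against 185 in N2 (5.14). Nematode-specific peptide genes had 11 higher of 42 (26.2%, against 3.1% of all genes), and nspb-1, at 32 reads in BB19 and 3.66 in BB2, against 43.9 in N2 (2.79), led them. tbh-1, which makes octopamine, was the only neuronal gene of 72 at 2-fold (1.39%, against 3.1% of all genes), with 345 reads in BB19 and 38.2 in BB2, against 316 in N2 (3.13). Among 60 genes of vulval development 2 were higher, the Wnt gene mom-2 (1.26) and the Delta-like gene apx-1 (1.07), a share of 3.33% that is near the 3.1% of all genes. In the same list 1 was lower, lin-44 (−3.44), a share of 1.67%, against 0.733% of all genes. The astacin protease genes nas-20 (3.57) and nas-9 (1.48) were among 3 of 29 that were higher (10.3%, against 3.1% of all genes), and nas-13 was the 1 lower (3.45%, against 0.733%), in a family with a median of −0.21. F-box genes, substrate adaptors for protein breakdown, had 7 higher of 151 (4.64%, against 3.1% of all genes), fbxc-32 (3.40) among them, and a median of 0.07.

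Housekeeping and tissue lists lay slightly lower in BB19 or near 0. Cytosolic ribosomal proteins had a median difference of −0.14 over 79 genes and none at 2-fold, against 3.83% of all genes. Muscle genes had a median of −0.20 over 51 and intestinal genes −0.22 over 47, of which 2 were at least 2-fold lower in BB19 (4.26%, against 0.733% of all genes), cpr-2 (−1.35) and dod-24 (−1.09). Next came dod-22 (−0.86) and dod-21 (−0.84), which like dod-24 are known as targets downstream of insulin signalling. RNA interference and small RNA genes had a median of 0.06 over 61, heat shock genes −0.12 over 50, and nuclear hormone receptors 0.03 over 188. Of 12 transcripts with long-known editing sites none reached 2-fold in either direction, against 3.83% of all genes. In a list this short, none is near that share. The highest was rncs-1, a noncoding RNA that inhibits Dicer, at 139 reads in BB19 and 73.8 in BB2, against 147 in N2 (0.89). Of 7 genes of the intracellular pathogen response none reached 2-fold, again near that share in so short a list, and their median was −0.13. The lists not described here had medians between −0.27 (cuticlins) and 0.20 (histones).

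Some of the largest differences came in short runs of neighbouring genes, and others, such as those of W03F11.1, col-95, col-8 and clec-223, did not. On chromosome X, ZK813.3, ZK813.2, ZK813.7 and ZK813.1 lay from 4.25 to 6.41, and Y62H9A.3, Y62H9A.4, Y62H9A.5 and Y62H9A.6 from 3.97 to 5.93. ZK813.1 had 397 reads in BB19 and 5.15 in BB2, against 204 in N2, and Y62H9A.4 had 483 in BB19 and 8.60 in BB2, against 245 in N2. The widest, ZK813.3, had 118 in BB19 and 0.287 in BB2, and its difference has a counting standard error of 1.72. On chromosome V, F14H3.3 to F14H3.6 lay at 2.06 or higher. The other runs of higher genes had 3 members each. They were R04D3.2, R04D3.4 and R04D3.3 on X (3.43 to 4.33), C17E7.9, C17E7.12 and C17E7.4 on V (2.23 to 3.85) and, on IV, nspb-1 to nspb-3 (2.23 to 2.79), K01G12.3, F02H6.2 and F02H6.3 (2.63 to 2.99) and F55B11.2, F55B11.3 and F55B11.5 (1.34 to 4.23). Of 474 protein-coding genes at least 2-fold higher, 23.4% had a neighbour that was too, against 4.76% of all 14203 tested. Copies of a gene often lie side by side and may share reads, and the part of shared reads in these runs was not tested.

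By chromosome, genes at least 2-fold higher in BB19 made up 6.04% of 1986 on X and 2.90% of 12217 on the autosomes. Among autosomes the share ran from 1.59% on chromosome III to 4.27% on chromosome V. The median difference on X was −0.04 and that on the autosomes 0.03, so it was single genes and not the whole of X that lay higher. Vitellogenin genes vit-1 to vit-5 and the ZK813 and Y62H9A runs are among those X-linked genes.

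Among the 121 genes lower in BB19, N2 lay nearer to BB2 for some and nearer to BB19 for others. The widest gaps, those of F56A4.9 (−4.62) and Y19D10A.7 (−4.57), had N2 near BB19, as did srbc-15 (−3.39), all described below. D1014.6 (named gtnt-17 in the WBcel235 annotation) had 58.3 reads in BB19 and 520 in BB2, against 418 in N2 (−3.13), and its neighbour in name D1014.7 (gtnt-18) had 56.9 in BB19 and 464 in BB2, against 315 in N2. BE0003N10.3 had 210 reads in BB19 and 933 in BB2, against 676 in N2 (−2.15). Y71G12B.18 had 131 reads in BB19 and 609 in BB2, against 435 in N2. In these 4, as in gly-1 (−2.45) and F54D10.8 (−2.11), BB19 lay farther from N2 than BB2 did, and BB2 lay above N2 by a smaller step (from 0.16 to 0.55 on the log2 scale). ZK218.5, like the first genes, had N2 nearer to BB19, with 8.09 reads in BB19 and 82 in BB2, and was listed at 0 in N2.

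Few genes separated BB19 from BB2 at both stages, although the embryo libraries are separate from those of L4. In embryos 26 genes were at least 2-fold higher in BB19 than in BB2 (0.168%) and 635 lower (4.1%), the reverse of the L4 imbalance. Over 13964 genes measured at both stages, Pearson's r of the differences was 0.07 and Spearman's rho −0.02, a description across genes, which are not independent and share their strain and normalisation. At least 2-fold lower at both stages were 16 genes, which is 18.4% of the 87 lower at L4 and 2.76% of the 580 lower in embryos. With genes whose means equal those of another gene left out, 12 were lower at both stages. The 16 include F56A4 and Y19D10A genes in pairs of like level, described below, so they are not 16 separate signals. Higher at both stages were 3, which is 0.958% of 313 and 14.3% of 21. Opposite in direction were 7, among them vit-2 and vit-6, with low embryonic levels. Of the 313 genes higher at L4, 6 were lower in embryos (1.92%), and of the 87 lower at L4, 1 was higher (1.15%). Over all 13964 genes 580 were lower and 21 higher in embryos, so these counts single out no gene.

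lin-44, a Wnt ligand of tail polarity on chromosome I, was low in BB19 at both stages. At L4 it had 9.67 reads in BB19 and 115 in BB2, against 93.5 in N2 (−3.44). In embryos it had 20.1 reads in BB19 and 171 in BB2, against 138 in N2 (−3.02). RB886 (99 at L4, 137 in embryos) and BB3 (94.5 and 134) stood near N2, so BB19 alone departed among the 5 strains. H19N07.3, known as nhj-1, a gene of DNA end joining, had 70.6 reads in BB19 and 196 in BB2 at L4, against 219 in N2 (−1.47), and 41.7 in BB19 and 211 in BB2 in embryos, against 253 in N2 (−2.31).

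BB2 departed alone in another set. F56A4.9 (irld-35) had 4.01 reads in BB19 and 125 in BB2 at L4, against 4.08 in N2 (−4.62), and 1.32 in BB19 and 115 in BB2 in embryos, against 1.73 in N2 (−5.66). Y19D10A.7 (irld-53) had 3.73 reads in BB19 and 115 in BB2 at L4, against 3.03 in N2 (−4.57). The C-type lectin gene clec-209 (Y19D10A.9) had 383 reads in BB19 and 1204 in BB2 at L4, against 380 in N2 (−1.65), and 6.16 in BB19 and 163 in BB2 in embryos, against 3.83 in N2 (−4.53). Their values run in parallel, since F56A4.2, which mirrors clec-209, had 357 reads in BB19 and 1114 in BB2, against 361 in N2 (−1.64). The F56A4 and Y19D10A genes stand in separate runs on chromosome V whose members pair up in level, so reads may be shared between the copies. srbc-15, a gene of a chemoreceptor family on the same chromosome that the WBcel235 annotation marks as a pseudogene, had 7.66 reads in BB19 and 91.2 in BB2 at L4, against 7.90 in N2 (−3.39), and 9.04 in BB19 and 51.5 in BB2 in embryos, against 9.38 in N2 (−2.39).

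The 3 genes higher in BB19 at both stages were F55G1.12 and, named after their values were seen, srw-85 and Y50D7A.5. srw-85, a predicted chemoreceptor, had 33.5 reads in BB19 at L4 and was listed at 0 in BB2, against 18.9 in N2. In embryos it had 70.6 reads in BB19 and 1.18 in BB2, against 49.3 in N2. RB886 and BB3 were as low as BB2, at 0.885 and 1.29 reads at L4. F55G1.12 had 30.7 reads in BB19 and 4.39 in BB2 at L4, against 58.3 in N2, and 26.3 in BB19 and 4.75 in BB2 in embryos, against 6.08 in N2.

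**Figure D5:**
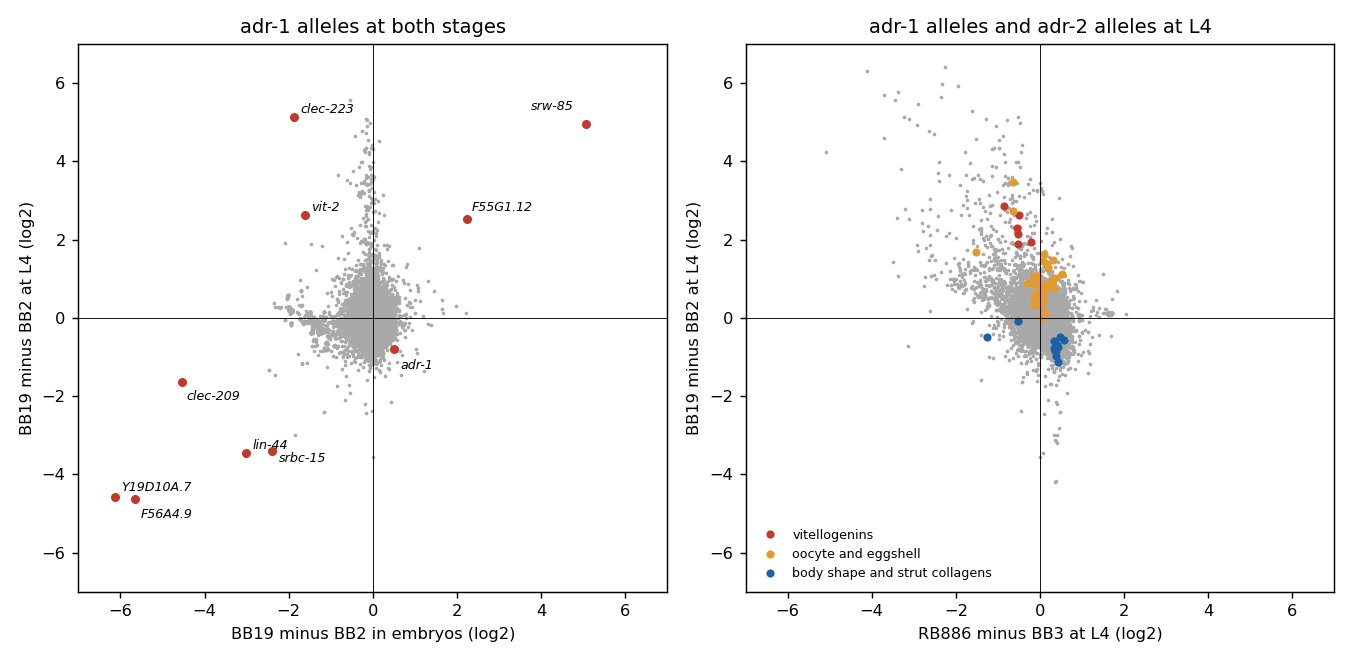
Left, BB19 minus BB2 at L4 (y axis) against the same difference in embryos (x axis), 1 point per gene of the 13964 measured at both stages, with 10 named genes in red. Right, BB19 minus BB2 at L4 (y axis) against RB886 minus BB3 at L4 (x axis) over 16388 genes, with 3 gene lists coloured. Both axes are log2 differences; the left cloud has no slope (r = 0.07) and a few genes such as lin-44 and F56A4.9 lie far down on the diagonal, whereas the right cloud leans to the upper left (r = −0.46).

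The adr-2 strains at L4 gave another pair of alleles with no library in common with BB19 or BB2. There 92 genes were at least 2-fold higher in RB886 than in BB3 (0.556%) and 327 lower (1.98%). Over 16388 genes Pearson's r between the differences was −0.46 and Spearman's rho −0.24, again across genes. Of the genes higher in BB19 than in BB2, 181 were lower in RB886 than in BB3, which is 37.9% of 477 and 56.9% of 318, and 1 was higher. For these 181 genes BB19 and BB3 were thus on the higher side and BB2 and RB886 on the lower. Over all 511 genes higher in BB19, the median log2 ratio to N2 was 0.57 in BB19, −1.38 in BB2, −0.51 in RB886 and 0.20 in BB3. The genes lower in BB19 showed little of this at 2-fold. Of 115 measured in both pairs, 2 were higher in RB886 than in BB3 and 2 lower (1.74% each). Their median for RB886 minus BB3 was 0.37.

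The gene groups divided the opposition of the 2 allele pairs unevenly. col-8 had 74.1 reads in RB886 and 821 in BB3, next to 1170 in BB19 and 23.6 in BB2, and col-19 had 789 in RB886 and 2083 in BB3. Vitellogenins had a median of −0.52 for RB886 minus BB3, and the epidermal antimicrobial peptides one of −1.35, larger in size than their 0.82 between the adr-1 strains. Body shape and strut collagens had a median of 0.37. Oocyte and eggshell genes, in contrast, were at 0.04 between RB886 and BB3, against 0.87 between BB19 and BB2. Whether the 2 pairs differ for these lists could not be tested from group means.

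RNAs that the authors listed as bound by FLAG-tagged ADR-1 in young adults were counted in the same way. The lists come from pull-downs set against the negative control BB21, with adr-1(tm668) and adr-2(ok735) and without the tagged transgene. Of 1051 bound in HH76, which carries adr-1(tm668) and the transgene with adr-2 present, and measured here, 28 were at least 2-fold higher in BB19 (2.66%) and 3 lower (0.285%), with a median difference of −0.06. Of 1042 bound in HH134, which carries adr-2(ok735) as well, 38 were higher (3.65%) and 1 lower (0.0960%), with a median of −0.03. Of all genes 3.1% were higher and 0.733% lower. R09A8.2, at 113 reads in BB19 and 2.24 in BB2, against 16.1 in N2 (5.09), was on both lists, and col-8 on that of HH134.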

How the data were processed

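RNA of whole BB19, BB2, RB886, BB3 and N2 worms at L4 and as embryos had been sequenced. Bowtie, DESeq and ce10 appear in the submitters' processing notes, without versions and without saying what each was used for. Per the file headers, the signal in each deposited table is the authors' normalised mean read count per transcript over the libraries of a strain, for the mutant and for N2. The fold change, p-value and adjusted p-value in these tables are the authors' own ratio and test of a strain against N2, as deposited. The log2 fold change of the deposited tables of ADR-1-bound RNA, with its standard error and test score, served only to list bound genes. The tables spell RB886 as RB668.

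From these means, 34873 transcripts were reduced to 30301 genes, each by its transcript with the largest sum of means. The difference is log2((BB19 + 1)/(N2 + 1)) minus log2((BB2 + 1)/(N2 + 1)). Genes with an average of the 4 means of at least 10 were kept, and a difference of at least 2-fold was counted. Levels are rescaled by the median ratio of N2 means (1.115 for BB2 at L4). The depth per library is unknown beyond the read steps, and counting errors assume these means came from 3 libraries. Of the genes kept, 748 had the same means as another gene and share its reads. The calculation was tested on simulated data. Python 3.11.15, pandas 2.3.3, numpy 2.4.6 and matplotlib 3.10.9 were used.

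The comparison and the 46 gene lists were chosen with earlier results of these data known, and patterns of the L4 series seen before are no independent support here. After the values were seen, 2 list patterns were corrected, removing serpins from the chemoreceptors and other genes from the F-box family. Of the list names, 16 were not found. Names, chromosomes and neighbours come from the WBcel235 annotation, which matched 28900 genes and is not the build of the tables, so no coordinates are given. Genes were named by rule, among those with an average of at least 20: the 12 largest differences in each direction, the 5 most abundant genes past 2-fold in each direction, the 3 largest in each list, the 5 largest at both stages in each direction, adr-1 and adr-2. Others were named after their values were seen, where a whole set past 2-fold is given or as an example of the abundant members of a list. Pseudocounts of 0.1 and 10, no minimum, a minimum of 50, folds of 1.5 and 3, a direct ratio, summed or separate transcripts, centring, and leaving out genes with shared reads were the alternatives.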

Additional observations from a re-analysis of the deposited data

How the results depend on the processing

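With no minimum on the means, 1094 genes were at least 2-fold higher in BB19 than in BB2 and 468 lower, and 17 were higher and 37 lower at both stages. With a minimum of 50 these counts were 231 and 65, and 0 and 2. At a fold of 1.5 they were 1205 and 708, and 15 and 90, and at a fold of 3 they were 263 and 31, with 7 lower at both stages. A pseudocount of 10 left 80 genes lower. These settings change by construction which genes can be counted, and in each the higher genes outnumbered the lower at L4 and the lower outnumbered the higher at both stages. Rescaling by a direct ratio gave 512 higher and 122 lower genes, and centring on the median 506 and 127. The differences of adr-1 and adr-2, the spans of the 4 allele pairs and the list medians moved by less than 1.5-fold under all settings that recomputed them. Medians of 5 lists changed sign between settings, all close to 0: cytochrome P450, glucuronosyltransferases, sex determination, nematode-specific peptides and spermatogenesis. Among 160 named genes no direction reversed. Of the 78 that were 2-fold apart, 4 (bath-4, ugt-11, gst-41 and nas-13) fell under 2-fold with a pseudocount of 10, and the 34 larger shifts all came from the pseudocount, as for ZK813.3, at 8.21 with a pseudocount of 0.1 and 3.51 with 10. No paired analysis was possible because the files used here hold means over libraries, so no replicate block could be fitted and no replicate left out. Means of 3 libraries limit what can be said: a 2-fold difference cannot be set against the spread between libraries, and at 10 reads counting error alone reaches 0.38.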
